A study of Mus musculus with 6 samples.

Results

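The genes of the G2 phase and of mitosis were examined in cultured mouse muscle stem cells, the cells from which skeletal muscle regenerates, after 24 h with prostaglandin E2 (PGE2) or with its solvent. The 34 members were taken by exact symbol from a given list; the rule uses no measured value, but the list was drawn up with earlier results of these data known. All 34 were found, with 1 row each, among the 43283 genes of the deposited table. RNA was sequenced in 6 libraries, 3 per group. Both groups held wild-type C57BL/6 cells, sorted by flow cytometry from the hindlimb muscles of female mice as positive for α7-integrin and CD34 and negative for CD45, Sca1, CD31 and CD11b. The mice were 8 to 12 weeks old by the sample labels and 2 to 4 months old by the series' design text. Both groups were kept in culture medium with fetal bovine serum; the Vehicle group received DMSO for 24 h and the PGE2 group received PGE2 for the same time, at a concentration that the labels do not give. The design text calls the libraries biological triplicates, and no label ties a library to an animal, a sort or a culture. A p-value here therefore reflects only how far these libraries lie apart, and that distance may be technical.

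A dividing cell copies its DNA in S phase, prepares for division in G2 and separates the copies in mitosis. CDK1 bound to A- and B-type cyclins starts mitosis, the mitotic kinases and motors build the spindle, the spindle checkpoint holds division until every chromosome is attached, and the anaphase-promoting complex then marks cyclin B for breakdown. Most of these genes are transcribed in G2, from promoters bound by NF-Y and by the MuvB complex with B-MYB and FOXM1, and their messages are low in resting cells. Muscle stem cells rest in uninjured muscle and enter the cell cycle after injury or when placed in culture.

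All 34 members were listed above 0 in every library, from 6.69 to 2847 TPM. TPM is a length-corrected share of the transcripts of each library, so levels of different genes can be set side by side. That use assumes that all genes are recovered alike in the amplified cDNA, which was not tested. The mean over the 6 libraries was 20 TPM or more for 31 members. Smc4, a core subunit of condensin, was the highest at a mean of 2090 TPM, followed by the DNA topoisomerase gene Top2a at 321.0 and the cyclin gene Ccna2 at 249.5. The ranges of these genes over the libraries did not overlap each other. Below them stood the kinetochore motor gene Cenpe at 168.5 TPM, Mki67 at 148.7 and the ubiquitin-conjugating enzyme gene Ube2c at 126.0. The lowest were Cdc20 at 18.4, Cdca3 at 13.1 and Kif2c at 9.83 TPM. From Ccna2 downward, every pair of neighbours in this order overlapped in range.

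**Figure D1:**
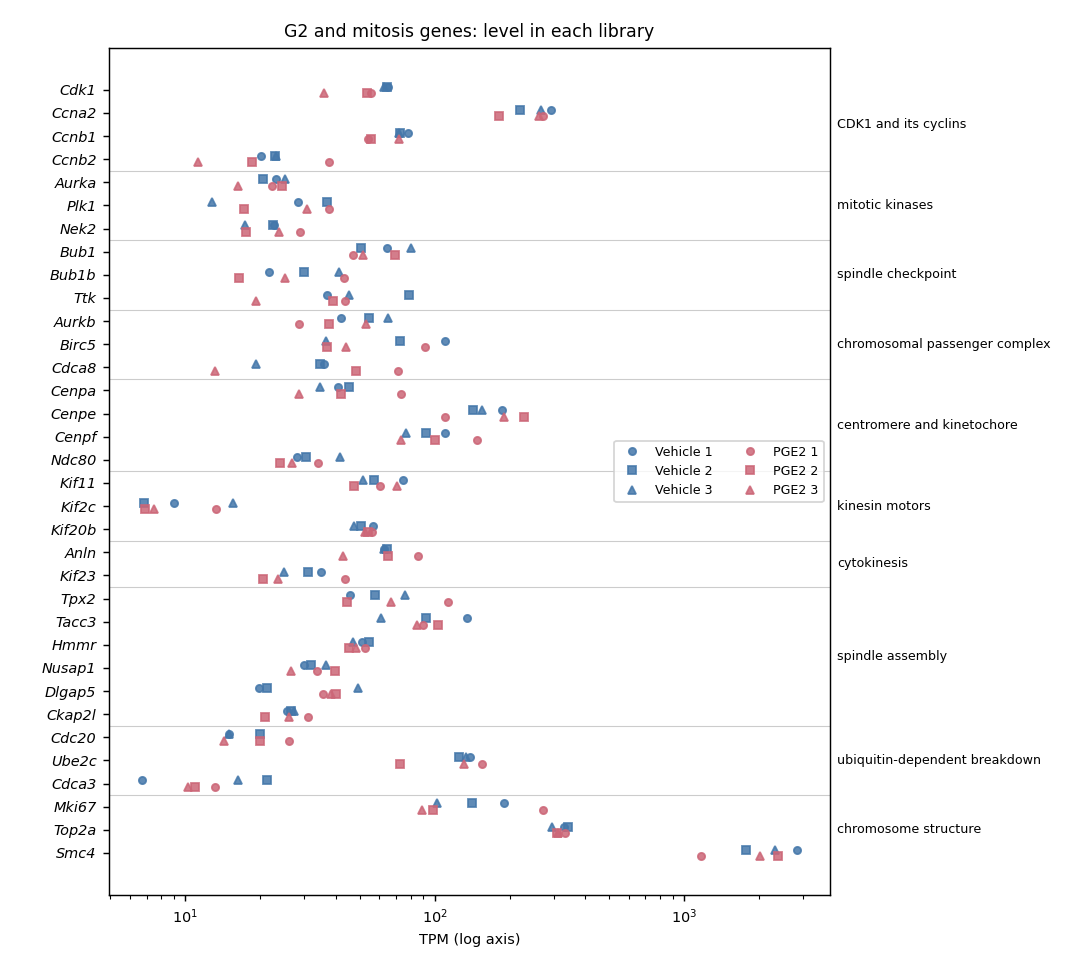
Level of each of the 34 G2 and mitosis genes in TPM on a log axis, with 1 point per library (blue, Vehicle; red, PGE2; circles, squares and triangles for libraries 1, 2 and 3), grouped by role. Smc4 stands alone at the right, and the PGE2 points of Cdk1 all lie to the left of its Vehicle points.

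PGE2 was compared with Vehicle by limma on log2(TPM + 1), with Benjamini-Hochberg adjustment over all 12781 genes that passed a filter on low values (1 TPM or more in at least 3 libraries). All 34 members passed that filter. No member had an adjusted p under 0.05, and neither did any other gene (0.0% of those tested). No member had an unadjusted p under 0.05 either, against 464 genes, or 3.63% of all tested; the smallest among the members was 0.152, for Ttk. Adjusted p in limma was 1.00 for every member. Groups that do not overlap were found for 1 member, Cdk1, for which every PGE2 library read below every Vehicle library, against 4.84% of all tested genes in that direction. No member lay higher in each PGE2 library, against 3.18% of all tested genes. Both counts are near or under that background.

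The fitted difference, PGE2 minus Vehicle, was above 0 for 12 members and below 0 for 22, or 35.3% higher against 43.9% of all tested genes. After median-ratio scaling or quantile normalization of the libraries, 16 of the 34 were higher. Without PGE2 1 the count was 5, and without PGE2 2 it was 18. The median difference of the members was -0.06 on the log2 scale, beside -0.07 for all tested genes. The members' median was thus not lower than that of all tested genes, and no fall of these messages is shown here. In RNA from a pool, the share of cells in G2 and mitosis cannot be told apart from the amount of message per such cell.

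The size of change that these libraries leave possible was narrower for the members than for most genes. The 95% confidence interval of the difference had a median half-width of 0.782 on the log2 scale over the members and 1.21 over all tested genes. It lay within a 2-fold change in either direction for 18 of the 34 members (52.9%), against 13.3% of all tested genes. The same held for 11 of 34 S phase genes (32.4%) and for 19 of 71 other mitosis genes (26.8%). This count was added after the data were seen, and it was 7 without Vehicle 1 and 8 without Vehicle 2. For the other members the interval reaches past a 2-fold change on at least 1 side, so it does not exclude a change of that size. The mean level was 20 TPM or more for 31 members, while a tested gene needed only 1 TPM in 3 libraries. The fit lets the expected variance follow the mean level, and no share over genes of like level was computed. Whether level accounts for the narrower intervals was not tested.

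**Figure D2:**
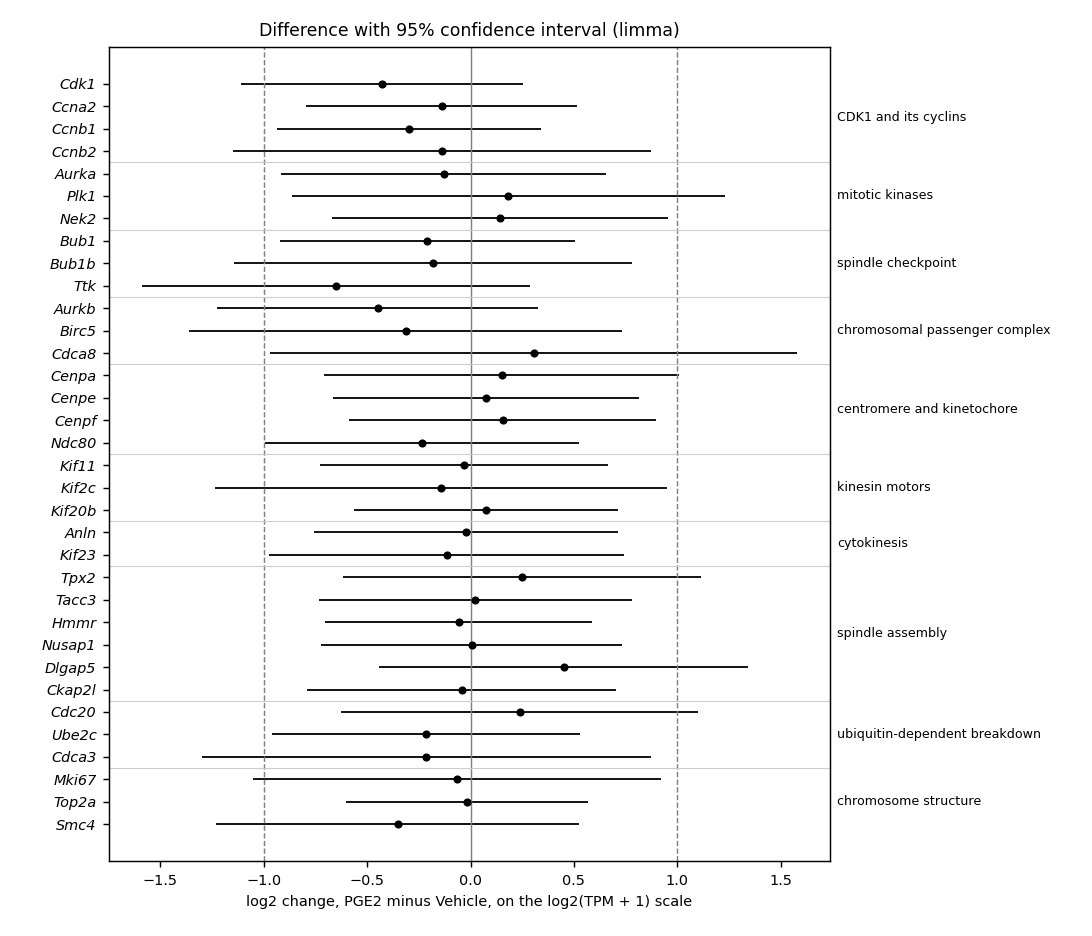
Fitted difference of each member on the log2(TPM + 1) scale, positive where PGE2 was higher, with its 95% confidence interval from limma (points and bars) and dashed lines at a 2-fold change. The points run from -0.65 for Ttk to 0.45 for Dlgap5, and every interval includes 0.

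The promoters of 4 members are shown as examples. Cdk1 was the only member without overlap between the groups. Ccnb2 and Mki67 were among those with the widest spread between PGE2 libraries, and Top2a had the smallest standard error. Whether the sequences bear on these values was not tested. Each line gives 200 bases up to the RefSeq transcription start, 5′ to 3′ on the gene's strand, which is the minus strand for all of them. Capitals mark CCAAT, the box bound by NF-Y, and TTTGAA or TTCGAA, the forms of the CHR element bound by MuvB complexes, each also where it reads on the other strand as ATTGG or TTCAAA.
Cdk1: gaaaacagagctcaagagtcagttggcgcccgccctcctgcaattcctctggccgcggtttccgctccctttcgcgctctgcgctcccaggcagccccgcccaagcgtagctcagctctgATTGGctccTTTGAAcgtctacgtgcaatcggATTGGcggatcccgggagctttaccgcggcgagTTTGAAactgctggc
Ccnb2: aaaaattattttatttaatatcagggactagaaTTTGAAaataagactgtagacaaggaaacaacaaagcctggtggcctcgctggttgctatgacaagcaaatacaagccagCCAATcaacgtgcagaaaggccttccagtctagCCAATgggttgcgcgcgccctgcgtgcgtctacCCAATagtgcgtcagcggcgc
Top2a: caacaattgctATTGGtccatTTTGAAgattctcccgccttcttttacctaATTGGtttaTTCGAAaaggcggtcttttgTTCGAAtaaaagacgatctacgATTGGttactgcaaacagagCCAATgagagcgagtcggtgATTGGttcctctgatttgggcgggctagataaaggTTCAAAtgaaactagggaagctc
Mki67: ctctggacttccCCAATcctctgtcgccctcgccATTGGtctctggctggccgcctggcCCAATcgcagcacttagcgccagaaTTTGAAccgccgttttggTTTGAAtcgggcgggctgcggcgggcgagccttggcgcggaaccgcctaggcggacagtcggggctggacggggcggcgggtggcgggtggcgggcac

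These windows lie at chr10:69352913-69353112, chr9:70421555-70421754, chr11:99024190-99024389 and chr7:135716380-135716579 of GRCm38.p6, the assembly also called mm10. No capital stretches overlap in them. The annotations do not always share a start: by GENCODE the Cdk1 gene runs to 69352938, inside its window. The TTTGAA 15 bases before the RefSeq start of Cdk1 thus lies within the gene by GENCODE. Promoter sequences from RefSeq were at hand for 29 of the 34 members, all but Aurkb, Dlgap5, Smc4, Ccna2 and Tpx2. Within 250 bases before the start, on either strand, CCAAT was present in 22 of 29 (75.9%), against 33.8% of 32851 promoters of all genes. It occurred at 2 or more places in 16 (55.2%, against 10.1%). In 8 promoters (27.6%, against 1.69%) a pair of CCAAT boxes stood 30 to 36 bases apart. These were Aurka, Ccnb1, Ccnb2, Cdca3, Cdca8, Cdk1, Hmmr and Ube2c. TTTGAA was found in 9 (31.0%, against 16.0%) and TTCGAA in 2, Bub1b and Top2a (6.9%, against 1.34%). TGACGTCA, the full cAMP response element, was found in 1, Cenpe, 34 bases before the start (3.45%, against 1.55% of all promoters). The motifs and the spacing were chosen after the promoters were at hand, and a match describes letters, not a bound site. Matches of different motifs were counted also where they overlap.

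Among CDK1 and its cyclins, all 4 fitted differences were below 0, from -0.43 to -0.14, beside 7167 of all 12781 tested genes. In other settings of the fit those of Ccna2 and Ccnb2 reached 0.05 and 0.25. Cdk1, the kinase that drives entry into mitosis, lies on the minus strand at chr10:69335146-69352938. It read 65.1, 64.6 and 62.3 TPM across Vehicle 1 to 3 and 55.5, 53.3 and 35.8 across PGE2 1 to 3. The Vehicle libraries were close together, and every PGE2 library was below all of them, with PGE2 3 the lowest. The group means were 64.0 ± 1.46 and 48.2 ± 10.8 TPM (SD, n = 3 each). The difference was -0.43 on the log2 scale, or 0.744-fold, with an interval of -1.11 to 0.26 (unadjusted p = 0.194 and adjusted p = 1.00 in limma). Ccnb1, cyclin B1, the partner of CDK1 at mitotic entry, read 77.8, 72.5 and 71.7 TPM across Vehicle and 53.95, 55.4 and 71.9 across PGE2. PGE2 1 and 2 were below every Vehicle library and PGE2 3 was just above the lowest of them, so the groups overlapped. Its difference was -0.30 (interval -0.94 to 0.34). PGE2 3 was thus the lowest library for Cdk1 and the highest PGE2 library for Ccnb1.

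The other B-type cyclin of the list, Ccnb2, was even across Vehicle, at 20.2, 22.9 and 23.2 TPM. In PGE2 it read 37.5, 18.5 and 11.2 TPM, so that the highest and the lowest of the 6 libraries were both PGE2 libraries. Ccna2, cyclin A2, which acts in S phase and G2, ranged from 220.5 to 293.7 TPM in Vehicle and from 180.6 to 272.1 in PGE2, and its interval lay within a 2-fold change.

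The mitotic kinases outside the checkpoint gave differences from -0.13 to 0.18. Plk1, polo-like kinase 1, which acts at centrosomes and kinetochores and in cytokinesis, read 28.2, 36.9 and 12.8 TPM across Vehicle and 37.8, 17.2 and 30.6 across PGE2. The lowest value was Vehicle 3 and the highest PGE2 1, and the groups overlapped widely. The difference was 0.18 (interval -0.87 to 1.23). Aurka, Aurora A, which matures centrosomes and builds the spindle, ranged from 16.3 to 25.1 TPM over all libraries. Nek2, a kinase that separates centrosomes, ranged from 17.3 to 28.7 TPM. The intervals of Aurka and Nek2 lay within a 2-fold change.

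The spindle checkpoint genes Bub1, Bub1b and Ttk all had differences below 0, from -0.65 to -0.18. In other settings of the fit that of Bub1b reached 0.14. Ttk, the kinase also called MPS1 that starts the checkpoint at unattached kinetochores, had the most negative difference of all members. It read 37.1, 78.7 and 45.1 TPM across Vehicle and 43.6, 38.9 and 19.3 across PGE2. Vehicle 2 was high and PGE2 3 low, while the other 4 libraries lay between 37.1 and 45.1 TPM and mixed the groups. The difference was -0.65, or 0.636-fold, with an interval of -1.59 to 0.29 (unadjusted p = 0.152 and adjusted p = 1.00 in limma). With library weights in the fit its unadjusted p was 0.0369, the only member under 0.05 in that setting, where 670 of all 12781 genes were, and its adjusted p stayed above 0.05. Bub1, which recruits checkpoint proteins to kinetochores, ranged from 47.1 to 80.1 TPM and Bub1b, an inhibitor of the anaphase-promoting complex, from 16.4 to 43.4 TPM.

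The chromosomal passenger complex corrects faulty attachments and directs cytokinesis, and its members differed from each other. Aurkb, its kinase subunit Aurora B, read 41.95, 54.6 and 65.0 TPM across Vehicle and 28.6, 37.8 and 53.1 across PGE2. PGE2 1 and 2 were below every Vehicle library, and PGE2 3 was above Vehicle 1. The difference was -0.45 (interval -1.22 to 0.33). Cdca8, the Borealin subunit, read 35.9, 34.6 and 19.2 TPM across Vehicle and 71.6, 48.1 and 13.1 across PGE2. Its SD over the PGE2 libraries, 1.24 on the log2 scale, was the largest of any member, with PGE2 1 highest and PGE2 3 lowest of the 6. The difference was 0.31 (interval -0.97 to 1.58). Without PGE2 3 it was 1.00, with an unadjusted p of 0.0389, where 758 of all 12781 genes were under 0.05, and an adjusted p above 0.05 in limma. Birc5, survivin, which tethers the complex to centromeres, ranged from 36.5 to 109.9 TPM and had its highest value in Vehicle 1.

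Of the centromere and kinetochore genes, 3 had differences above 0 and 1 below, all between -0.23 and 0.16. In other settings of the fit those of Cenpa, Cenpe and Cenpf reached -0.20, -0.14 and -0.10. Cenpa, the histone H3 variant that marks centromeres, ranged from 28.6 to 73.4 TPM, and Cenpf, a large outer kinetochore protein, from 73.4 to 147.6 TPM. In both, PGE2 1 was the highest and PGE2 3 the lowest library. Cenpe, a motor that brings chromosomes to the spindle equator, had the opposite placement of PGE2 1, which was its lowest library at 110.3 TPM; PGE2 2 was its highest at 227.9. Ndc80, which holds microtubules at the kinetochore, ranged from 23.8 to 41.9 TPM.

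Kinesin motors and cytokinesis genes had fitted differences close to 0, from -0.14 to 0.08. Kif11, the motor that keeps the spindle bipolar, ranged from 47.5 to 74.7 TPM with a difference of -0.03. Kif20b, a motor of the spindle midzone, stayed between 47.3 and 56.7 TPM in all libraries, with a difference of 0.08 (interval -0.56 to 0.71). Kif2c, which takes microtubules apart at centromeres, was the lowest member and ranged from 6.84 to 15.5 TPM. Anln, a scaffold of the contractile ring, was nearly level across Vehicle (62.4, 64.3 and 62.5 TPM) and spread over 86.1, 65.05 and 42.8 TPM in PGE2. Kif23, a motor of the central spindle, ranged from 20.4 to 43.8 TPM.

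The 6 spindle assembly genes gave differences from -0.06 to 0.45, with 4 above 0. In other settings of the fit those of Tpx2, Tacc3 and Nusap1 reached -0.10, -0.26 and -0.13. Dlgap5, which stabilizes the microtubules that pull on kinetochores, had the most positive difference of all members. It read 19.8, 21.3 and 49.4 TPM across Vehicle and 35.7, 40.2 and 38.4 across PGE2. The PGE2 libraries were close together, and Vehicle 3 lay above them while Vehicle 1 and 2 lay below. The difference was 0.45, or 1.37-fold, with an interval of -0.44 to 1.34 (unadjusted p = 0.289 and adjusted p = 1.00 in limma). Without Vehicle 3 it was 0.86, the largest difference of any member in that setting. Tpx2, which activates Aurora A on the spindle, ranged from 44.6 to 112.6 TPM and Tacc3, which links spindle fibres, from 61.0 to 134.3 TPM. Hmmr, which orients the spindle, stayed between 45.2 and 54.5 TPM. Nusap1, a microtubule-bundling protein, ranged from 26.4 to 39.7 TPM, and Ckap2l, a spindle-associated protein, from 20.8 to 31.0 TPM.

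For ubiquitin-dependent breakdown, Cdc20, the activator that brings substrates to the anaphase-promoting complex, read 14.96, 19.8 and 14.96 TPM across Vehicle and 26.1, 19.9 and 14.3 across PGE2. PGE2 1 was high and the other libraries were mixed. The difference was 0.24 (interval -0.63 to 1.10). Cdca3, an adaptor in the breakdown of the mitotic inhibitor WEE1, had the largest SD of any member over Vehicle, 0.80 on the log2 scale. It read 6.69, 21.2 and 16.3 TPM across Vehicle and 13.2, 10.9 and 10.2 across PGE2, so that Vehicle held both its lowest and its highest library. Ube2c, the enzyme that supplies ubiquitin to the anaphase-promoting complex, ranged from 72.7 to 154.1 TPM.

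The chromosome structure genes had differences below 0, from -0.35 to -0.02. In other settings of the fit those of Top2a and Mki67 reached 0.04 and 0.22. Top2a, which untangles the copied DNA strands and whose promoter holds the most capital stretches of those printed, read 330.2, 342.7 and 296.5 TPM across Vehicle and 333.0, 310.4 and 313.4 across PGE2. The groups overlapped throughout, and the SD on the log2 scale was 0.108 in Vehicle and 0.0549 in PGE2. The difference was -0.02, with the narrowest interval of any member, -0.60 to 0.57. Mki67, which encodes the Ki-67 protein that coats mitotic chromosomes and is used to mark cycling cells, read 189.8, 140.8 and 102.5 TPM across Vehicle and 271.1, 98.6 and 89.3 across PGE2. PGE2 1 was the highest of the 6 libraries and PGE2 2 and 3 were the lowest. The difference was -0.06 (interval -1.05 to 0.92). Mki67 and Top2a, both common markers of cycling cells, thus differed in how much they varied among the same 3 PGE2 libraries.

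Smc4 read 2847, 1782 and 2327 TPM across Vehicle and 1176, 2391 and 2017 across PGE2. PGE2 1, the library in which 14 other members were highest, was its lowest, and the difference was -0.35 (interval -1.23 to 0.53). It and its partners were singled out after their values were seen. Smc4 ranked 40 of all 43283 genes by mean level and held between 31.1% and 54.4% of the summed TPM of the 34 members. Its partner Smc2, with which it forms the core of condensin, ranged from 204.3 to 264.4 TPM. The ratio of Smc4 to Smc2 was 12.8, 8.34 and 11.3 in Vehicle and 4.45, 11.7 and 8.04 in PGE2. The reason for this gap, biological or technical, was not tested. The condensin I subunits Ncapd2, Ncapg and Ncaph ranged from 26.5 to 76.6, from 52.2 to 97.4 and from 15.2 to 50.1 TPM. Smc4 lies on the plus strand at chr3:69004738-69034623, with 11 annotated transcripts of 393 to 4316 bases. The microRNA genes Mir15b and Mir16-2 lie within that span, overlap 0 of its exons and were listed at 0 in every library. Whether these libraries record microRNAs was not tested, so a 0 does not show that the microRNAs were absent.

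Across libraries, PGE2 1 was high and PGE2 2 and 3 were low for many members at once. The mean over members of each gene's deviation from its own mean, on the log2 scale, was 0.05, 0.06 and -0.003 for Vehicle 1 to 3 and 0.24, -0.14 and -0.21 for PGE2 1 to 3. Over all tested genes it had the same order in PGE2, at 0.13, -0.09 and -0.14. The S phase genes stood at 0.31, -0.18 and -0.24 in PGE2 1 to 3. The other mitosis genes stood at 0.20, -0.20 and -0.15, so the pattern was not particular to the members. PGE2 1 was the highest of the 6 libraries for 14 members (41.2%, against 30.1% of all tested genes). PGE2 3 was the highest for 0 members (11.1% of all tested genes) and the lowest for 11 (32.4%, against 23.2%). Ccnb2, Cdca8, Cenpa, Cenpf, Anln, Cdc20 and Mki67 were highest in PGE2 1 and lowest in PGE2 3. After median-ratio scaling the mean deviation of the members was -0.0003 in PGE2 1, -0.03 in PGE2 2 and 0.01 in PGE2 3, and that of all tested genes was -0.06, -0.004 and 0.04. After quantile normalization the mean deviation of the members was 0.11, -0.08 and -0.06 in PGE2 1 to 3, and that of all tested genes was -0.0001, -0.003 and -0.0001. After removal of the mitochondrial genes it was 0.17, -0.17 and -0.15 in PGE2 and -0.06, 0.08 and 0.13 in Vehicle. All genes tested in that setting stood at 0.07, -0.11 and -0.08 in PGE2 and -0.02, 0.05 and 0.09 in Vehicle. The mitochondrial share of TPM was 20.9%, 28.3% and 33.6% for Vehicle 1 to 3, and 23.0%, 25.5% and 30.45% for PGE2 1 to 3. The number of genes listed above 0 ran from 16446 to 19677 in Vehicle and from 15400 in PGE2 1 to 17710 in PGE2 3. Vehicle 1 and 3 had the lowest and the highest mitochondrial share. Their member deviations were 0.05 and -0.003 as deposited and -0.06 and 0.13 without the mitochondrial genes. The part of these measures in the pattern was not tested.

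**Figure D3:**
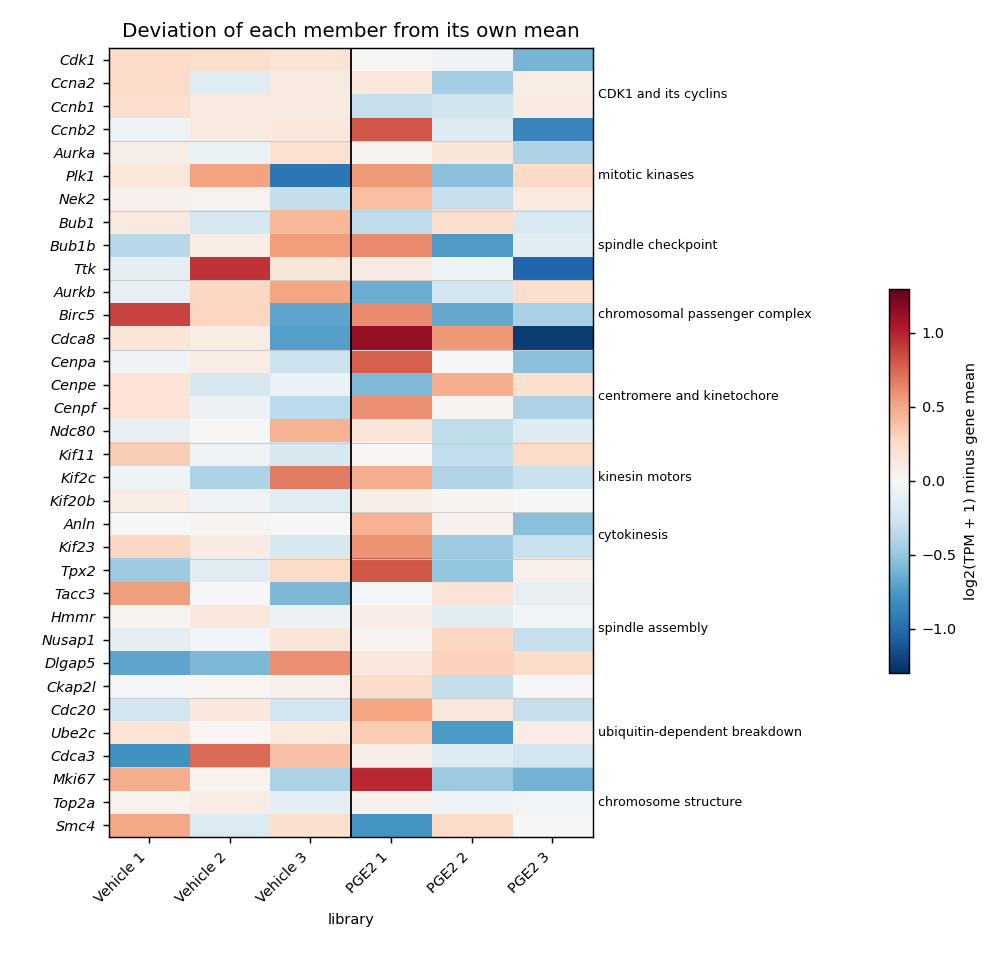
Deviation of each member from its own mean over the 6 libraries, on the log2(TPM + 1) scale (red above, blue below), with members in rows by role and libraries in columns. PGE2 1 is mostly red and PGE2 3 mostly blue, with Smc4, Cenpe and Aurkb among the exceptions in PGE2 1.

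**Figure D4:**
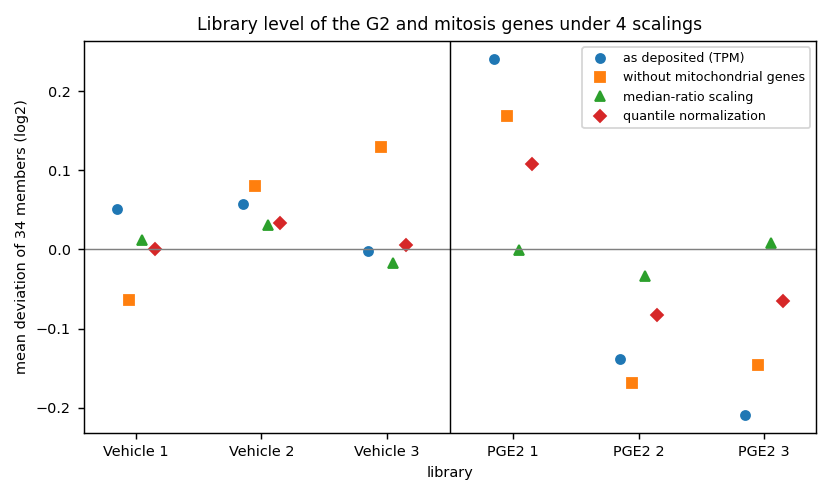
Mean deviation of the 34 members in each library on the log2 scale, for the values as deposited and after 3 other scalings. The gap between PGE2 1 (0.24 as deposited) and PGE2 3 (-0.21) closes to under 0.01 after median-ratio scaling, where all tested genes stand at -0.06 and 0.04. It remains after quantile normalization (0.11 and -0.06) and without the mitochondrial genes (0.17 and -0.15).

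Libraries of the PGE2 group differed more from each other than those of Vehicle for 24 of the 34 members (70.6%), close to the 69.5% of all tested genes. The median SD over the members was 0.250 in Vehicle and 0.424 in PGE2 on the log2 scale, beside 0.433 and 0.663 for all tested genes. Cdca8, Mki67 and Ccnb2 had the largest SD in PGE2. Cdca3, Birc5, Plk1 and Dlgap5 had the largest in Vehicle.

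**Figure D5:**
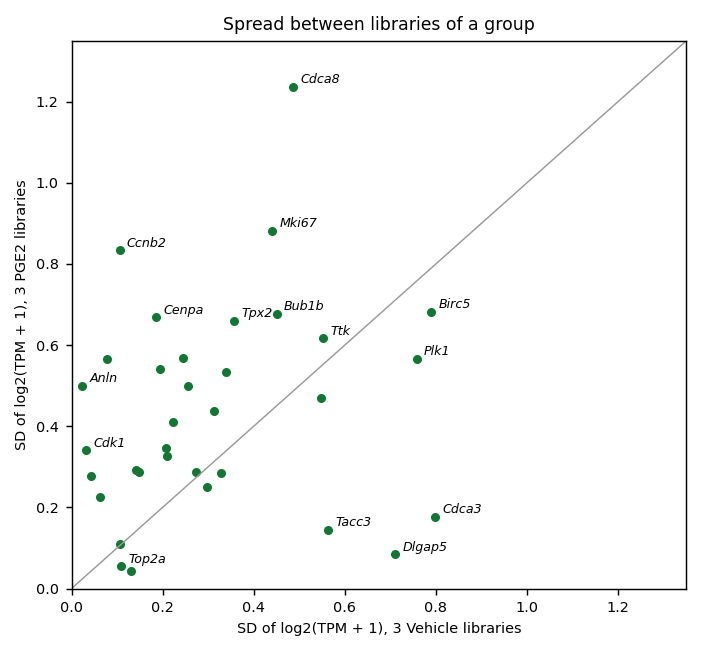
SD of log2(TPM + 1) over the 3 PGE2 libraries against that over the 3 Vehicle libraries, with 1 point per member and a line where they are equal. Of the 34 points, 24 lie above the line; Cdca8 is the highest at 1.24 and Cdca3 the farthest right at 0.80.

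Of 71 other mitosis genes, 31 were higher and 40 lower, with a median of -0.08, and none passed the adjusted threshold in limma. An unadjusted p under 0.05 was found for 4 of the 71, beside 3.63% of all tested genes, and Sgol1 was named among them after its values were seen. The groups did not overlap for 3 that were higher and 3 that were lower, beside 3.18% and 4.84% of all tested genes. Nuf2, the partner of Ndc80 in the microtubule-binding complex, read 22.6, 23.7 and 26.2 TPM across Vehicle and 40.8, 39.8 and 44.6 across PGE2. Every PGE2 library was above every Vehicle library, and the difference was 0.77 (interval 0.07 to 1.46; unadjusted p = 0.0334 and adjusted p = 1.00 in limma). Ndc80 itself had a difference of -0.23, and the other subunits Spc24 and Spc25, also chosen after their values were seen, had differences of 0.0004 and 0.02. Sgol1, shugoshin, which protects the cohesion of sister chromatids, read 39.8, 46.5 and 47.7 TPM across Vehicle and 30.2, 24.2 and 26.4 across PGE2. Every PGE2 library was below every Vehicle library, with a difference of -0.71 (adjusted p = 1.00 in limma). Ska1, which couples kinetochores to microtubules, had a difference of -1.33 with overlapping groups. Fam64a read 0.82 and 1.49 TPM in 2 Vehicle libraries, was listed at 0 in the third and read 2.73 to 3.51 TPM in PGE2.

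Of 10 genes that control entry into mitosis, 5 were higher and 5 lower, and those with the smallest p were Wee1, Chek1 and Cdc25b. Of 17 genes of the anaphase-promoting complex and its activators, 9 were higher and 8 lower. Among these Anapc5, a subunit of the complex, was higher in each PGE2 library, at 86.5 to 107.3 TPM against 55.0 to 83.9. Its difference was 0.51 (adjusted p = 1.00 in limma). It was the only one of the 17 without overlap, beside 3.18% of all tested genes in that direction. Anapc15 and Cdc23 had the next smallest p, with differences of 0.87 and -0.53 and overlapping groups. Of 34 S phase genes, 10 were higher and 24 lower, with a median of -0.09. Gmnn, geminin, an inhibitor of repeated DNA replication, was the one with the smallest p, at 23.6, 23.5 and 20.3 TPM across Vehicle and 31.6, 45.1 and 29.0 across PGE2 (adjusted p = 1.00 in limma). Mcm3 and Gins2, parts of the replicative helicase, had differences of -0.58 and -0.34 with overlapping groups.

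Of 23 genes that regulate transcription of the G2 and mitosis genes, 8 were higher and 15 lower, with a median of -0.24, and none had an adjusted or an unadjusted p under 0.05 in limma. Foxm1, a forkhead activator of these genes, read 22.9, 38.8 and 81.0 TPM across Vehicle and 65.2, 24.8 and 16.9 across PGE2. Its values spread over both groups, with PGE2 1 the highest PGE2 library. Mybl2, which encodes B-MYB, read 12.2, 16.8 and 18.1 TPM across Vehicle and 20.9, 6.60 and 9.82 across PGE2, again with PGE2 1 highest. Rb1, the retinoblastoma repressor gene, read 31.6, 48.5 and 29.5 TPM across Vehicle and 19.9, 22.4 and 19.7 across PGE2, and each PGE2 library was below each Vehicle library. Its difference was -0.76 (interval -1.54 to 0.01; unadjusted p = 0.0532 and adjusted p = 1.00 in limma). Cdkn1a, which encodes the CDK inhibitor p21, had a difference of -0.87 with overlapping groups. Nfyc, a subunit of the CCAAT-binding factor NF-Y, was lower in each PGE2 library, at 4.21 to 9.35 TPM against 9.68 to 13.3. Its difference was -0.69 (unadjusted p = 0.172 and adjusted p = 1.00 in limma). Rb1 and Nfyc were the only 2 of the 23 without overlap, beside 4.84% of all tested genes in that direction.

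The labelled cell type was checked against its markers. Of 12 muscle stem cell markers, all were above 1 TPM in at least 1 library and they summed to 951.6 to 1219 TPM in Vehicle and 795.5 to 1093 in PGE2. Pax7, which defines these cells, ranged from 33.3 to 56.7 TPM in Vehicle and from 23.9 to 67.0 in PGE2, and Myod1, the myoblast regulator, from 102.8 to 109.0 and from 89.5 to 146.2. Leukocyte markers summed to 3.43 to 10.9 TPM in Vehicle and 7.38 to 13.1 in PGE2, with Ptprc, which encodes CD45, between 0.45 and 4.81 and C1qa and C1qb listed at 0. Endothelial markers summed to 4.16 to 7.42 and 6.90 to 19.9 TPM with Cldn5 at 0. Fibro-adipogenic markers summed to 22.4 to 35.9 and 29.2 to 49.7 TPM, pericyte markers to 7.02 to 16.2 and 10.5 to 12.7 TPM with Pdgfrb at 0, and glial markers to 2.89 to 5.17 and 2.14 to 9.78 TPM. Under 1 TPM in every library were 3 of 10 leukocyte, 2 of 8 endothelial, 2 of 7 fibro-adipogenic, 3 of 6 pericyte and 4 of 5 glial markers. Whether such cells contributed to the levels of the members was not tested.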

How the data were processed

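RNA from sorted, cultured cells was purified with Qiagen columns for small inputs, and the cDNA was amplified with NuGEN Ovation reagents for Illumina sequencing, per the labels' protocols. STAR, RSEM and the build mm10 are named in the submitters' processing notes; no version is given in the sources used here. The authors deposited 1 table, whose values were taken as TPM: column totals run from 992357 to 995645. Read depth cannot be had from TPM and is unknown here, so intervals of counting error were not computed. No libraries held identical values, and none of 10 housekeeping genes was at 0.

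The members and all gene lists were chosen with earlier results of these data known. Genes that reached 1 TPM in 3 or more of the 6 libraries were tested with limma 3.58.1 (R 4.3.3; variance prior following the mean) on log2(TPM + 1), two-sided, with Benjamini-Hochberg adjustment over all 12781; differences on this scale understate the change of low genes. Values per library are given for Cdk1, Ccnb1, Mki67, Top2a, Plk1, Aurkb and Cdc20, and for members without overlap, with the extreme differences or with the largest SD of a group; of other lists, up to 3 genes with the smallest p, Foxm1 and Mybl2. Ccnb2, Anln, Smc4 and its partners, Spc24, Spc25 and Sgol1 were added after their values were seen. Positions come from GENCODE M21, which held 42782 of the identifiers, and promoters from RefSeq. Tables and figures used Python 3.11.15. Alternatives covered the pseudocount, filter, scaling, variance prior, library weights, replicate block and each library left out.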

Additional observations from a re-analysis of the deposited data

How the results depend on the processing

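In each of the 16 alternatives no member passed the adjusted threshold. Of 544 recomputed member differences, 0 moved by more than 1 residual SD, but that count is no measure of stability. Leaving out 1 of 3 libraries cannot move a difference that far. The filters, the robust prior and the replicate block leave the differences unchanged. The sign was kept in all 16 alternatives by 11 members: Aurkb, Bub1, Ccnb1, Cdk1, Hmmr, Ndc80, Smc4 and Ttk below 0, and Cdc20, Dlgap5 and Kif20b above 0. The sign of 12 members turned without PGE2 2 and of 7 without PGE2 1. Over all genes, limma called 1 gene with a robust prior and from 0 to 2 with 1 library left out; the cause was not tested. With 1 library left out, from 5 (without PGE2 1) to 18 (without PGE2 2) members were higher, and from 7 (without Vehicle 1) to 20 had an interval within a 2-fold change, where fewer samples enter the fit. The median difference lay between -0.18 without PGE2 1, where that of all genes was -0.17, and 0.01 without PGE2 2. No pairing by replicate number was seen: same-numbered libraries deviated with correlations of -0.06, -0.04 and 0.07 across genes. The largest correlations were 0.09, for Vehicle 1 with PGE2 2 and for Vehicle 2 with PGE2 1. No label states a pairing, and correlations this small cannot show that none existed. With the replicate block, 0 genes were called, 482 had an unadjusted p under 0.05, 12 members were higher and the median was -0.06. With 3 libraries a group the median half-width of the members' intervals was 0.782 on the log2 scale, and the read depth is unknown.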
